A study of Mus musculus with 2 samples.

Results

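Immediate early genes and heat shock genes were followed as a set of 35 named genes out of the 34097 genes listed in both of 2 mouse tumour libraries. The set holds 27 immediate early or early response genes and 8 heat shock genes. Its members are named by gene symbol, and the list was drawn up with earlier results of these data known. All 35 symbols were found in the files, and each was measured in 4 cell classes set by marker counts.

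The control library was made from a tumour labelled only as control, and the other from a tumour carrying a short hairpin RNA (shRNA) against Gfpt2, an enzyme of the hexosamine pathway. They are called control and knockdown below. Both tumours are labelled as lung cancer xenografts with LLC (Lewis lung carcinoma, a mouse line) as the cell type. The stated interest of the series is the immune compartment of these tumours and signalling among their cells. The labels give neither the host strain, age or time of growth nor the hairpin sequence, the vector of the control or whether 1 clone was used. Each group was 1 library, and the labels do not say how many animals it holds, so a difference between groups and a difference between these particular tumours or preparations cannot be told apart. No test was run. The 95% intervals given below cover counting error only.

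Immediate early genes are transcribed within minutes of a stimulus, without new protein synthesis, from promoters that are read by factors already present in the cell. Many encode transcription factors (the AP-1, EGR and NR4A families), and others encode brakes on the same signals, such as the phosphatases of the DUSP family and the inhibitors of NF-kB. Heat shock genes are driven by heat shock factors when proteins misfold and encode chaperones of the Hsp70, Hsp90, Hsp40 and small Hsp families. Both sets are also known to be induced when solid tissue is digested into single cells, and the digestion step is not described in the sources used here.

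After filters the control library held 10662 of 11977 cells and the knockdown library 11450 of 12853. The median kept cell had 9368.5 UMIs (unique molecular identifiers, each standing for 1 captured RNA molecule) in the control and 7171.5 UMIs in the other library. The libraries shared 37 cell barcodes, 29 of them among kept cells. Gfpt2, the gene targeted, had 211 UMIs in tumour-like cells of the control library (2.04 CPM) and 56 in those of the knockdown library (0.636 CPM), giving a log2 ratio of -1.68 (-2.13 to -1.248). CPM is a count scaled to a total of 1000000 UMIs over the class in 1 library.

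Tumour-like cells had no Ptprc UMI, under 5 Lyz2 UMIs per 10000 and at least 5000 UMIs. There were 4982 control and 5215 knockdown cells of this class, with median depths of 18743.5 and 14711 UMIs. Macrophages had at least 10 UMIs of C1qa, C1qb and C1qc per 10000 and numbered 3996 and 4580, with median depths of 5382 and 3968 UMIs. T cells had at least 2 UMIs of Cd3d, Cd3e and Cd3g and numbered 794 and 662. NK cells had at least 2 UMIs of Ncr1, Klrb1c and Klre1 with no Cd3 UMI and numbered only 53 and 61. The summed level of 12 tumour markers was 18500 CPM in control and 19070 CPM in knockdown tumour-like cells, while 10 macrophage markers summed to 470.4 and 585.3 CPM there. Of 6 fibroblast markers, 4 had at least 10 CPM in tumour-like cells of each library, so host fibroblasts may be among these cells, and their part in the results was not tested.

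The leukocyte gates let in cells with RNA of other classes, and the share differed between libraries. A tumour index was therefore computed for each cell, as its summed share of 20 tumour genes over the median share in tumour-like cells. None of the 20 is in the set. The index was at or above 0.3 in 311 control macrophages (7.78%) and in 1292 knockdown macrophages (28.2%). It was at or above 0.3 in 85 control (10.7%) and 86 knockdown T cells (13.0%), and in 2 NK cells of each library. Hmga2, a gene of the tumour-like cells, stood in gated macrophages at 14.9% (control) and 40.5% (knockdown) of its tumour-like level. In gated T cells it was instead higher in the control library, at 55.4% and 36.4%, and in gated NK cells it was 11.0% in both. Macrophage RNA differed most in gated NK cells, where 10 macrophage markers summed to 751.8 CPM (control) and 7461 CPM (knockdown) and C1qa stood at 1.12% and 17.8% of its macrophage level. Among macrophages that passed 1 gate only and had an index under 0.3, Hmga2 stood at 5.47% and 7.14%. Among NK cells chosen the same way the macrophage markers summed to 605.6 and 601.2 CPM. These low-index cells numbered 3568 and 3187 for macrophages, 596 and 484 for T cells, and 46 and 46 for NK cells. The limit of 0.3 was set after the data were seen. Results for leukocytes are given for the gates alone and for low-index cells, and levels by class are those of low-index cells.

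The promoters of 4 members are shown because the results turn on them: Hspa1a and Hspa1b, a near-identical pair that differed by class, and Dusp1 and Btg2, early response genes that were higher in knockdown tumour-like cells. The sequences are the 250 bases before the RefSeq gene start in GRCm38.p6, 5′ to 3′ on the gene's strand, which is the minus strand for all 4. The windows are chr17:34972157-34972406 for Hspa1a, chr17:34959239-34959488 for Hspa1b, chr17:26508473-26508722 for Dusp1 and chr1:134079156-134079405 for Btg2. Capitals in the first pair mark an inverted pair of heat shock units, the letters bound by heat shock factors (GAANNTTC or TTCNNGAA). Capitals in the second pair mark a cyclic AMP response element (TGACGTCA, the same on both strands).
Hspa1a: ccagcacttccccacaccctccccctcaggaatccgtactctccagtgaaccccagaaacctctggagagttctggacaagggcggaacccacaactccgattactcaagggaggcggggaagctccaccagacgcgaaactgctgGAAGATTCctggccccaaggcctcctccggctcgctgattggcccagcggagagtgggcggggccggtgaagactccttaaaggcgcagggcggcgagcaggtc
Hspa1b: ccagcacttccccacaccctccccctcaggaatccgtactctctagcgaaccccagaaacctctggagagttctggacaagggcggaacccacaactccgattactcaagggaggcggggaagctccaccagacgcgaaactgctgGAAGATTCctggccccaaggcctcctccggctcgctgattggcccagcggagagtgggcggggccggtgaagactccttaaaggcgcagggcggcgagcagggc
Dusp1: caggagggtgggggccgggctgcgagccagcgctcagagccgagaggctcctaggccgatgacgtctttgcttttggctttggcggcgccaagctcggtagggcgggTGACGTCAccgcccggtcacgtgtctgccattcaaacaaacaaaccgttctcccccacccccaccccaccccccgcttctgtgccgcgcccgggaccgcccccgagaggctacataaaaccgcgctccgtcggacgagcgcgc
Btg2: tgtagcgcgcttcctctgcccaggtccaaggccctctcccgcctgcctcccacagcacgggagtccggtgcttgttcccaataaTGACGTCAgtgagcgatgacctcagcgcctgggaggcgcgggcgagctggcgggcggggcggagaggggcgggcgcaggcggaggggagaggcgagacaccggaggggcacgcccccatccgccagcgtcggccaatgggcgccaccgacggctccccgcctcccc
The Hspa1a and Hspa1b windows were identical at 247 of 250 bases. Over windows from 250 bases before to 50 after the start, 28 members had an entry among 32851 promoters. The cyclic AMP response element was in 2 of these members, Dusp1 and Btg2, and in 1.79% of all promoters. Fos, Fosl2, Nr4a1 and Nr4a2, also called higher in knockdown tumour-like cells, had no exact match to it in their windows. Paired heat shock units were in 8 members and in 15.1% of all promoters, so this short motif is common. The CArG box read by serum response factor was in Egr2, Dusp5 and Zfp36 and in 1.63% of all promoters. A match describes letters in a window and does not show that a factor was bound.

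Immediate early RNA stood higher in all 3 leukocyte classes than in tumour-like cells, and heat shock RNA as a whole did not. The 27 immediate early members summed to 26.6 UMIs per 10000 in control and 30.72 in knockdown tumour-like cells. In macrophages they summed to 96.38 and 109.8, in T cells to 101.0 and 109.1, and in NK cells to 85.16 and 82.71. The 8 heat shock members summed to 30.04 and 33.03 in tumour-like cells, 29.02 and 27.49 in macrophages, 35.35 and 31.86 in T cells and 31.21 and 27.86 in NK cells. The leukocyte sums of early RNA thus lay above the tumour-like sums in both libraries with no overlap, while the heat shock sums of all classes lay between 27.49 and 35.35.

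Between macrophages and tumour-like cells, 21 of 35 members were at least 2-fold higher in macrophages in both libraries by the gates alone, against 20% of all genes compared, and Fosl1 alone was at least 2-fold lower, against 15.3% of all genes. With low-index macrophages the counts were 21 higher (20.6% of all genes) and 2 lower, Fosl1 and Myc (26.2%). Of the 21, 18 were immediate early members and 3 were heat shock members. In low-index T cells 25 members were at least 2-fold above tumour-like cells in both libraries (19.4% of all genes) and Fosl1 alone was at least 2-fold below (21.9%). By the gates alone 23 were above (16.1%) and 0 below (8.4%). In low-index NK cells 19 members were at least 2-fold above tumour-like cells in both libraries (11.2%). Fosl1 was below there too, at 3.72 and 7.71 CPM from 1 and 2 UMIs, against 112.3 and 106.6 CPM in tumour-like cells. The share of all genes below in NK cells is not given here. Tumour-like cells had the lowest level of 23 of the 35 members in both libraries. Among genes with enough UMIs to be compared in all 4 classes this held for 18 of 23 members and for 30.0% of all genes, and by the gates alone for 21 of 29 and 32.0%.

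**Figure D1:**
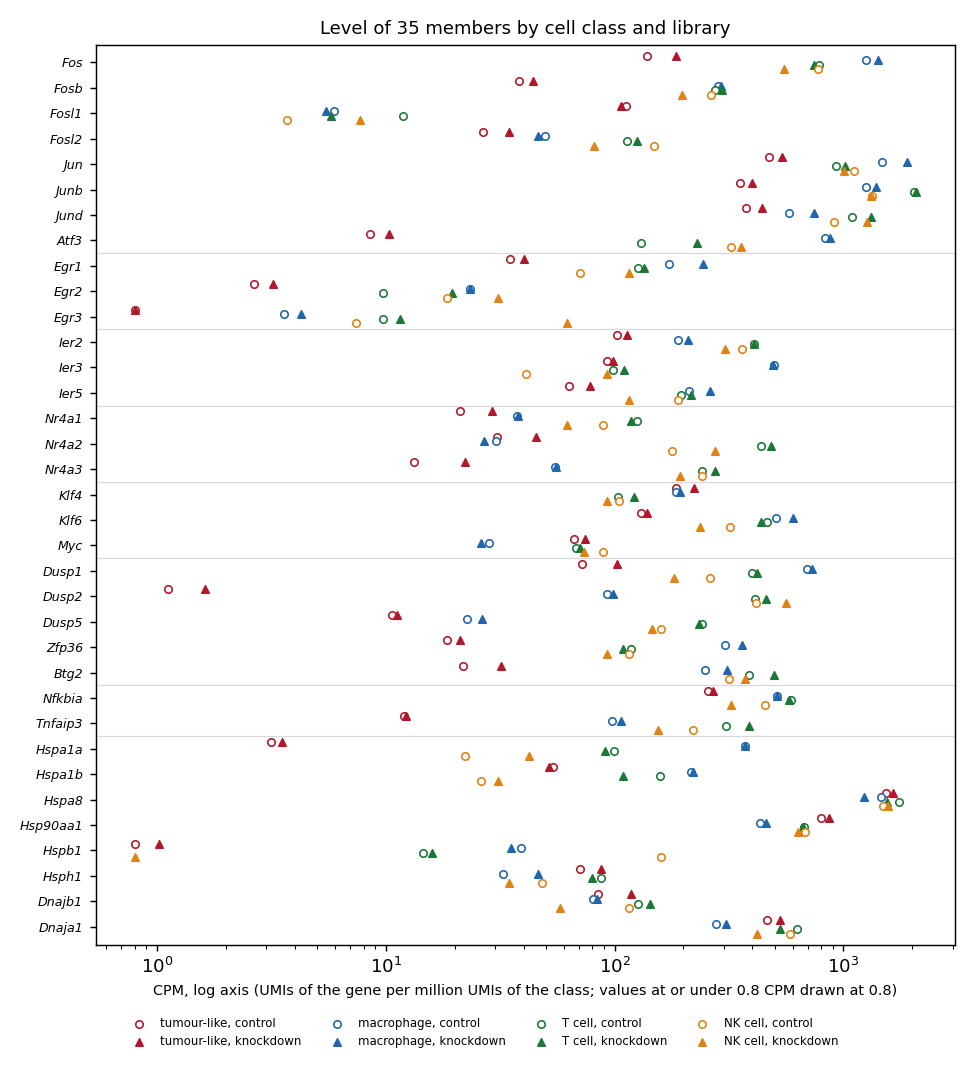
Level of each of the 35 members in CPM (log axis) in 4 cell classes, with leukocytes of low tumour index; open circles are the control library, filled triangles the knockdown library, and grey lines part the functional groups. For 23 members the tumour-like point is the lowest of its library in both libraries, while Fosl1 is highest there.

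**Figure D2:**
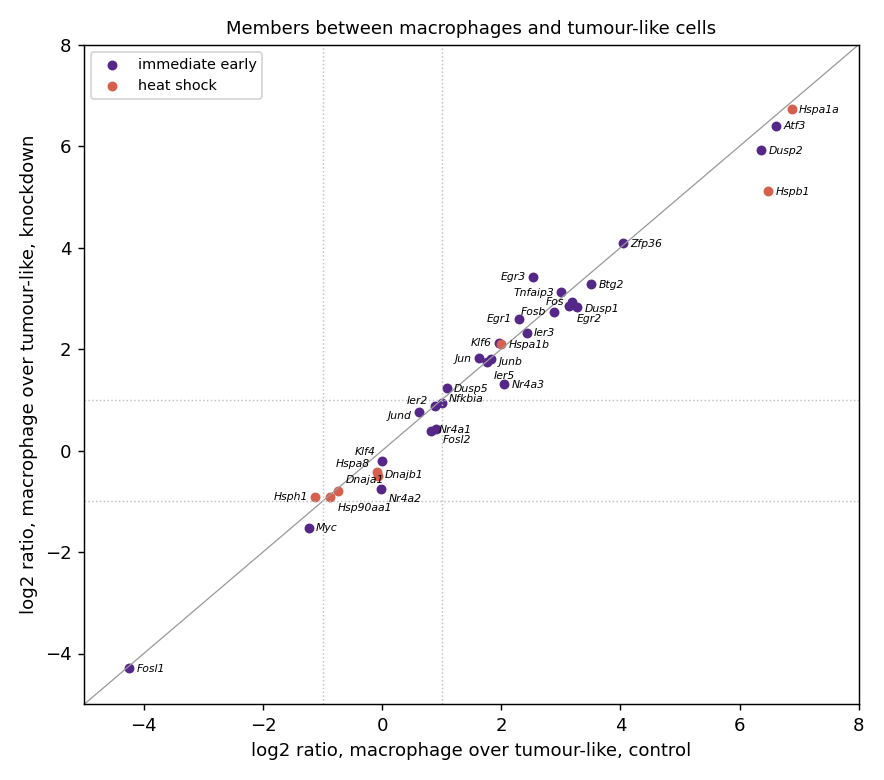
Log2 ratio of low-index macrophages over tumour-like cells for each member, in the control library (x axis) and the knockdown library (y axis); dotted lines mark 2-fold and the solid line equal ratios. Hspa1a, Atf3, Dusp2 and Hspb1 stand at the top right, and Fosl1 at the bottom left.

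Among the AP-1 members, Fos was 138.8 CPM in control and 185.1 CPM in knockdown tumour-like cells, and 1260 and 1412 CPM in macrophages. T cells had 784.3 and 743.3 CPM of Fos and NK cells 776.6 and 547.3 CPM, so macrophages were highest and tumour-like cells lowest in both libraries. Junb, the AP-1 member linked to activated lymphocytes, was instead highest in T cells, at 2027 and 2084 CPM, against 1257 and 1381 CPM in macrophages and 352.2 and 398.3 CPM in tumour-like cells. Fosb and Jun were lowest in tumour-like cells too, and Jun was highest in macrophages, at 1468 and 1902 CPM. Fosl2 was 26.65 and 34.62 CPM in tumour-like cells and 113 and 125 CPM in T cells. Jund, a member with a high steady level in most cells, spread least of these, from 374.5 CPM in control tumour-like cells to 1325 CPM in knockdown T cells.

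Fosl1 (ENSMUSG00000024912), the Fos-related antigen FRA-1 that is often high in carcinoma lines, was the exception. It was 112.3 CPM in control and 106.6 CPM in knockdown tumour-like cells, and 5.92 and 5.47 CPM in macrophages. That is 18.9-fold and 19.5-fold higher in tumour-like cells. The macrophage level was 5.28% and 5.13% of the tumour-like level, at or below the share of 5.47% and 7.14% for Hmga2, so Fosl1 in macrophages stood no higher, relative to tumour-like cells, than this other tumour gene. Atf3, a stress-induced partner of AP-1, had the opposite pattern, with 8.51 and 10.3 CPM in tumour-like cells against 830.6 and 871.9 CPM in macrophages. Its tumour-like level was 1.02% and 1.18% of the macrophage level, against 0.525% and 0.556% for C1qa and 0.656% and 0.794% for Apoe. These are macrophage genes taken as a guide to free or stray RNA. C1qa is part of the macrophage gate, so its share is set in part by the gate, while Apoe is in no gate. The Atf3 share was thus above those of C1qa and Apoe, though all were near 1% or below.

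The EGR members, zinc finger factors induced by growth factor and antigen receptor signals, were all lowest in tumour-like cells. Egr1 was 35.03 and 40.2 CPM there and 172.2 and 243.8 CPM in macrophages, with 127.1 and 134.4 CPM in T cells. Egr2 and Egr3 were rarer, and Egr3 had 64 control and 35 knockdown UMIs in all tumour-like cells. The NR4A members, orphan nuclear receptors that mark antigen receptor signalling in lymphocytes, were higher in T cells than in macrophages. Nr4a2 was 435.9 and 482.5 CPM in T cells, 30.38 and 26.78 CPM in macrophages and 30.61 and 45.41 CPM in tumour-like cells. It was 14.3-fold and 18.0-fold higher in T cells than in macrophages, and control macrophages and control tumour-like cells had nearly the same level. Nr4a1 and Nr4a3 were likewise at least 3.12-fold higher in T cells than in macrophages in both libraries.

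Of the feedback genes, Zfp36 was at least 2-fold higher in macrophages than in T cells and Dusp2 and Dusp5 at least 2-fold lower, while Dusp1 and Btg2 differed by less. Zfp36, which encodes the mRNA decay factor tristetraprolin, was 304 and 360 CPM in macrophages against 117.4 and 108.4 CPM in T cells and 18.48 and 21.16 CPM in tumour-like cells. Dusp1, a nuclear phosphatase of MAP kinases, was 694.7 and 730.9 CPM in macrophages, 399.2 and 419 CPM in T cells and 71.8 and 102.6 CPM in tumour-like cells. Dusp2 and Dusp5, nuclear phosphatases of the same family, were instead highest in lymphocytes. Dusp5 was 240.1 and 234 CPM in T cells, 22.74 and 26.22 CPM in macrophages and 10.7 and 11.21 CPM in tumour-like cells. Dusp2 was 409.4 and 458.7 CPM in T cells and 416.1 and 562.7 CPM in NK cells, against 1.12 and 1.62 CPM in tumour-like cells. Btg2, an antiproliferative gene, was 387.8 and 497 CPM in T cells, 248.6 and 308.7 CPM in macrophages and 21.86 and 31.76 CPM in tumour-like cells. Over all members, 9 (25.7%) were at least 2-fold higher in T cells than in macrophages in both libraries, against 16.3% of all genes, and 5 (14.3%) were at least 2-fold lower, against 14.7%. By the gates alone these counts were 4 (8.1% of all genes) and 5 (10.5%).

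Ier3 was highest in macrophages, at 495 and 494 CPM, and was 40.87 and 92.49 CPM in NK cells, from 11 and 24 UMIs, against 92.26 and 98.88 CPM in tumour-like cells. Ier2 was highest in T cells, at 405.1 and 405.2 CPM. Klf4 did not separate the large classes, with 184.7 and 221.4 CPM in tumour-like cells and 185.2 and 192.4 CPM in macrophages. Klf6 was 506.3 and 604 CPM in macrophages against 130.6 and 138.1 CPM in tumour-like cells. Myc, the growth regulator, was lower in macrophages (28.28 and 26 CPM) than in tumour-like cells (66.45 and 74.42 CPM) and T cells (68.15 and 70.79 CPM). Nfkbia and Tnfaip3 both restrain NF-kB. Nfkbia differed about 2-fold between macrophages (514.1 and 512.7 CPM) and tumour-like cells (256.7 and 269.4 CPM), and Tnfaip3 was 307.2 and 387.9 CPM in T cells against 12.07 and 12.26 CPM in tumour-like cells.

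Of the heat shock members, Hspa8 was nearly even across classes, while Hspa1a, Hspa1b and Hspb1 were not. Hspa8, the constitutive Hsp70, was the highest member in tumour-like cells in UMIs not scaled by gene length (as it was in NK cells, while Jun was in macrophages and Junb in T cells), at 1534 and 1649 CPM, and had 1453 and 1226 CPM in macrophages and 1752 and 1552 CPM in T cells. Hsp90aa1 was 793.9 and 864.4 CPM in tumour-like cells and 433.6 and 459.8 CPM in macrophages. Dnaja1, an Hsp40 partner of Hsp70, was 463.7 and 528.3 CPM in tumour-like cells and 278.3 and 305.4 CPM in macrophages. Hsph1, which exchanges nucleotide on Hsp70, was 70.73 and 86.85 CPM in tumour-like cells and 32.58 and 46.18 CPM in macrophages. These 3 were lower in macrophages than in tumour-like cells in both libraries, the opposite of most immediate early members. Dnajb1, the inducible Hsp40, was 84.74 and 118.2 CPM in tumour-like cells and 80.63 and 83.48 CPM in macrophages.

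Hspa1a (ENSMUSG00000091971) and Hspa1b (ENSMUSG00000090877), the stress-inducible Hsp70 genes, parted by class despite their near-identical promoters shown above. Hspa1a was 3.16 and 3.52 CPM in tumour-like cells and 370.5 and 371.8 CPM in macrophages. Hspa1b was 53.65 and 51.76 CPM in tumour-like cells and 215 and 220.8 CPM in macrophages. Hspa1a was therefore 117-fold and 106-fold lower in tumour-like cells and Hspa1b 4.01-fold and 4.27-fold lower. The Hspa1a level in tumour-like cells was 0.852% and 0.947% of that in macrophages, against 0.525% and 0.556% for C1qa and 0.656% and 0.794% for Apoe, another macrophage gene. The Hspa1a share was close to that of these macrophage genes, and the Hspa1b level in tumour-like cells was far above such a share. The coding sequences of the 2 genes are 99.5% identical and the stretches after the stop codon are 51.4% identical, so reads are told apart mainly in the latter. How the deposited counts treated reads that fit both genes is not given in the sources used here, and the split between them is uncertain for that reason.

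**Figure D3:**
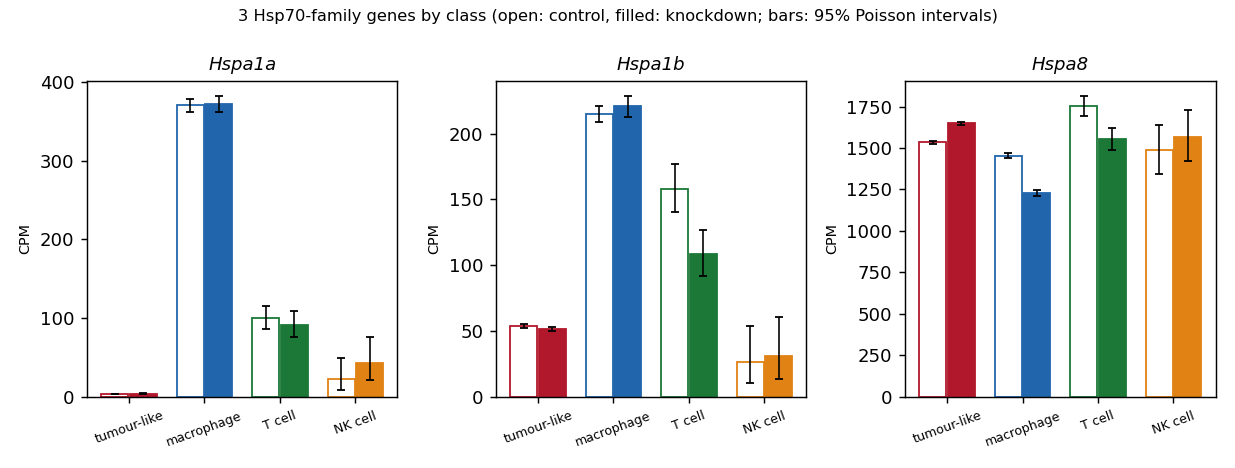
CPM of Hspa1a, Hspa1b and Hspa8 in each class of the control (open bars) and knockdown (filled bars) library, with 95% Poisson intervals from the UMI counts. Hspa1a is near 0 in tumour-like cells and Hspa1b is not, while Hspa8 lies between 1226 and 1752 CPM in every class and library.

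Hspb1, the small heat shock protein Hsp27, was carried by few cells. It had 814 control and 496 knockdown UMIs in macrophages, where 105 and 32 of them came from 1 cell. Cells were thinned to 2000 UMIs to compare shares, which left out 354 of 3568 control and 576 of 3187 knockdown macrophages as too shallow. After thinning, 1.71% (1.29 to 2.22) of control and 2.22% (1.69 to 2.86) of knockdown macrophages had a Hspb1 UMI, against 2.47% and 2.95% of all these macrophages before thinning. In control NK cells all 43 Hspb1 UMIs came from 1 cell, and knockdown NK cells had 0, which allows up to 14.2 CPM, and in control T cells 20 of 27 came from 1 cell. In tumour-like cells Hspb1 had only 45 control and 90 knockdown UMIs.

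Hspa1a and Hspa1b also varied more between cells than genes of similar mean. In control macrophages thinned to 2000 UMIs the variance of Hspa1a over its mean (the Fano factor, 1 for pure counting) was 5.39, against a median of 1.17 over genes of like mean, and in knockdown macrophages 5.003 against 1.17. Hspa1b gave 5.76 and 4.32 there, against 1.11 and 1.10. In T cells the factors were 8.04 and 9.04 for Hspa1a and 6.63 and 9.41 for Hspa1b, against medians of 1.05 to 1.07, but single cells weighed heavily there. Of the Hspa1a UMIs of T cells 27 of 184 (control) and 28 of 126 (knockdown) came from 1 cell, and of the Hspa1b UMIs 29 of 292 and 23 of 150. After thinning, with the same shallow cells left out, 32.6% (31.0 to 34.3) of control and 31.8% (30.0 to 33.6) of knockdown macrophages had a Hspa1a UMI, against 48.7% and 43.0% of all cells before. In tumour-like cells 0.723% and 0.901% had one after thinning, against 5.62% and 4.68% before, and their median depths were 18743.5 and 14711 UMIs. For Fos the factor was 2.55 and 2.86 in macrophages, below that of the Hsp70 pair.

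Across single macrophages Hspa1a and Hspa1b had a correlation of 0.53 in 3214 control cells and 0.49 in 2611 knockdown cells, the highest of all pairs of members in that class. Reads that fit both genes could add to it, which was not tested. Ranked by the lower value of both libraries, the next pairs were Fos with Junb (0.39 and 0.40) and Fos with Dusp1 (0.39 and 0.38), and the same pairs came first in tumour-like cells (0.41 and 0.40 for Fos with Junb, 0.35 and 0.35 for Fos with Dusp1). Pairs of 1 heat shock and 1 immediate early member had a median correlation of 0.02 in macrophages of both libraries and of 0.02 and 0.01 in tumour-like cells. Pairs of heat shock members had medians of 0.13 and 0.16 in macrophages and 0.09 and 0.09 in tumour-like cells, and pairs of immediate early members 0.07 and 0.06 in macrophages and 0.06 and 0.06 in tumour-like cells. These values come from log-scaled counts thinned to equal depth, and the cells of a library share its handling.

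In tumour-like cells most members had a higher level in the knockdown library. Those called higher included all 3 NR4A members, 3 of the 5 feedback genes, Fos, Fosl2, Dnajb1 and Hspb1. The log2 ratio of knockdown over control was above 0 for 32 of 35 members, against 63.6% of all 14827 genes compared, and its interval lay above 0 for 29 (29.8% of all genes) and below 0 for 2, Fosl1 and Egr3 (12.9%). Genes are called higher or lower where the log2 ratio was at least 0.32 from 0. Called higher were 10 members (12.6% of all genes), and Egr3 alone was called lower (3.56%). The median over the members was 0.20, against 0.05 over all genes. A scaling by TMM, which allows for a general shift between libraries, gave a median of 0.13 for the members, and the 10 became 9 (9.85% of all genes). Of all genes called, 78.0% were higher in the knockdown library, and 66.6% under TMM.

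The NR4A members were all among the 10. Nr4a3 was 13.23 CPM (control) and 22.27 CPM (knockdown), giving a log2 ratio of 0.75 (0.65 to 0.85). Nr4a2 was 30.61 and 45.41 CPM, giving a log2 ratio of 0.57 (0.50 to 0.64). Nr4a1 was 21.15 and 29.21 CPM, giving a log2 ratio of 0.47 (0.38 to 0.55). Of the 5 feedback genes Btg2 (21.86 and 31.76 CPM), Dusp1 (71.8 and 102.6 CPM) and Dusp2 (1.12 and 1.62 CPM) had log2 ratios of 0.54, 0.51 and 0.54, while Zfp36 was at 0.20 and Dusp5 at 0.07 with an interval across 0. The Dusp2 ratio rests on 116 and 143 UMIs. Its tumour-like level was 0.269% and 0.289% of that in NK cells, while C1qa stood at 0.525% and 0.556% of its macrophage level. NK cells were few, and in macrophages, a far larger class, Dusp2 was 92.43 and 97.97 CPM. The share thus depends on the class taken as the source. Whether the Dusp2 UMIs of tumour-like cells are stray RNA was not tested.

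Fos had a log2 ratio of 0.42 (0.38 to 0.45) in tumour-like cells and Fosl2 of 0.38 (0.30 to 0.45). Jun was 473.8 CPM (control) and 536.9 CPM (knockdown), giving a log2 ratio of 0.18 (0.16 to 0.20). Fosb, Junb, Jund and Atf3 lay between 0.18 and 0.28, and Fosl1 was slightly lower in the knockdown library, at -0.07 (-0.11 to -0.03). The 3 IER members lay between 0.10 and 0.31 and the KLF and MYC members between 0.08 and 0.26. Egr1 was at 0.20 and Egr2 at 0.28. Egr3 had 64 and 35 UMIs, a log2 ratio of -0.64 (-1.27 to -0.02). The NF-kB inhibitors were near 0, with Nfkbia at 0.07 and Tnfaip3 at 0.02 with an interval across 0.

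Among heat shock members of tumour-like cells, Dnajb1 was 84.74 CPM (control) and 118.2 CPM (knockdown), giving a log2 ratio of 0.48 (0.44 to 0.52). Hsph1 was at 0.30, Dnaja1 at 0.19, Hsp90aa1 at 0.12 and Hspa8 at 0.10. The Hsp70 pair had intervals across 0, with Hspa1a at 0.16 and Hspa1b at -0.05. Hspb1 had the highest ratio of the set, 1.23 (0.70 to 1.78), from 45 and 90 UMIs in all. In each library 1 cell held 6 (control) and 12 (knockdown) of them, so the counting interval understates the error. Its level was 0.43 and 1.02 CPM, against 38.88 and 35.24 CPM in low-index macrophages, and whether it is stray RNA was not tested.

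**Figure D4:**
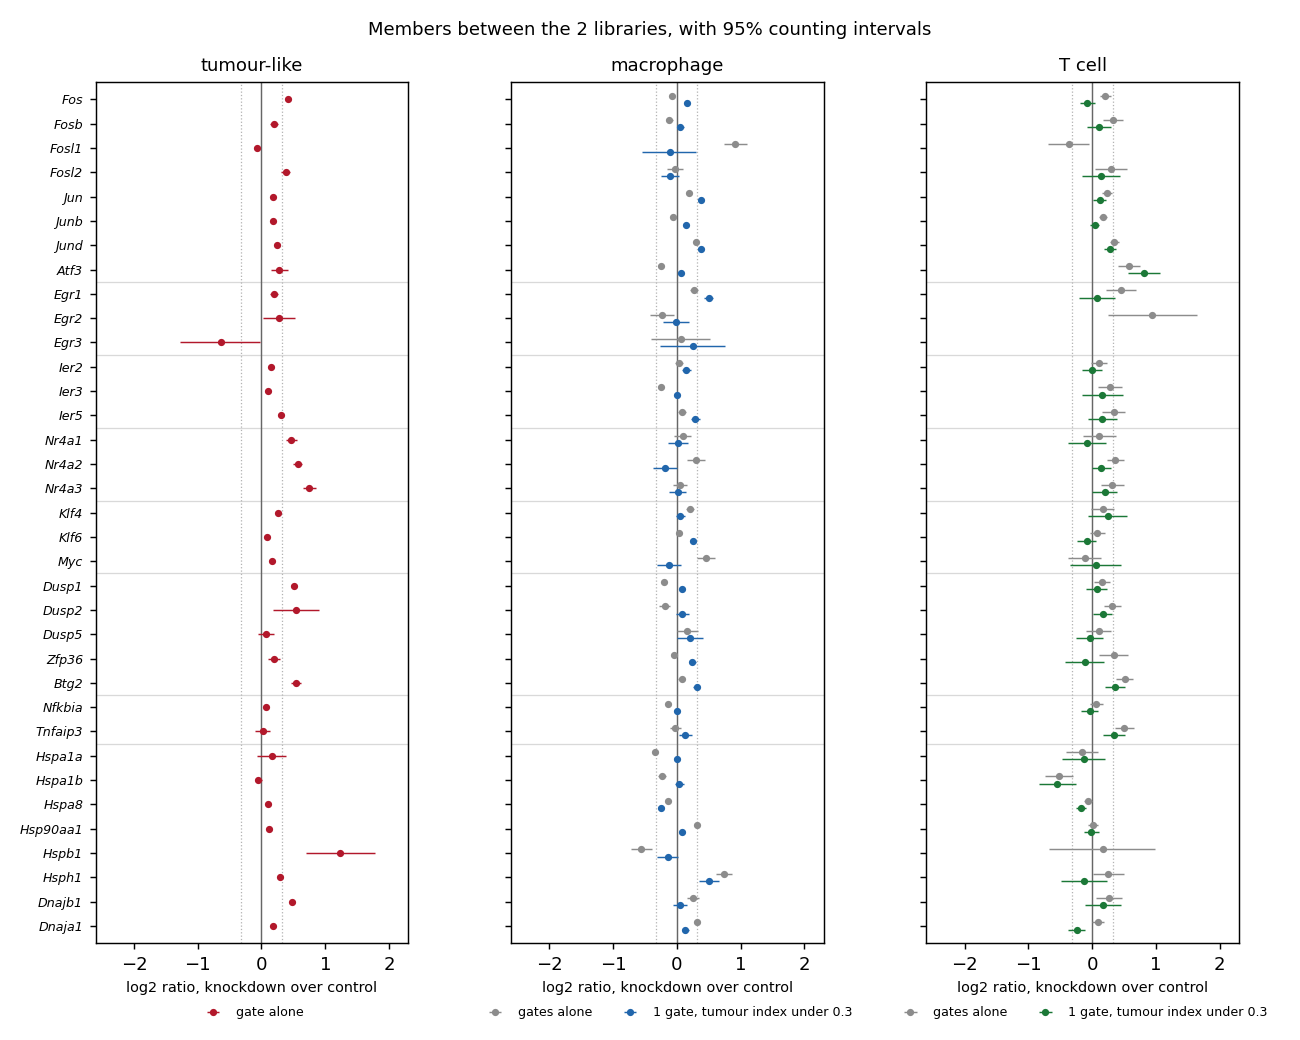
Log2 ratio of knockdown over control for each member compared (at least 50 UMIs over both libraries) in tumour-like cells, macrophages and T cells, with 95% counting intervals; grey points are the gates alone and coloured points low-index cells. Dotted lines mark ratios of 0.32; in tumour-like cells 32 of 35 points lie right of 0, and in macrophages several grey and blue points of the same gene lie on opposite sides of 0.

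In low-index macrophages Jun, Jund, Egr1 and Hsph1 were called higher in the knockdown library and no member was called lower. By the gate alone Hsph1 was called higher too (0.74), while Jun, Jund and Egr1 were not, at 0.18 to 0.30. By the gate alone 19 of 35 members were above 0, against 66.4% of all genes, 14 had an interval above 0 (36.9%) and 13 below 0 (13.8%), with 3 called higher (Fosl1, Myc and Hsph1, 27.1% of all genes) and 2 called lower (Hspa1a and Hspb1, 6.87%). In low-index macrophages 26 of 35 were above 0 (52.5% of all genes), 17 had an interval above 0 (17%) and 1 below 0 (15.4%). There 4 members were called higher (11.7%) and none was called lower (8.11%), so the share called higher was near that of all genes. The median over the members was 0.04 by the gate and 0.07 in low-index cells, against 0.12 and 0.02 over all genes. A TMM scaling moved the median of all genes by the gate from 0.12 to -0.02 and that of the members to -0.10. Of all genes called by the gate, 79.8% were higher in the knockdown library, and 56.1% under TMM. Of the members, 2 were then higher (18.4% of all genes) and 8 lower (14.4%).

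The members that were called higher in low-index macrophages were Egr1, Hsph1, Jun and Jund. Egr1 was 172.2 CPM (control) and 243.8 CPM (knockdown), giving a log2 ratio of 0.50 (0.43 to 0.57). Jun was 1468 and 1902 CPM, giving a log2 ratio of 0.37 (0.35 to 0.40), and Jund was 575.5 and 746.2 CPM, also 0.37 (0.34 to 0.41). Btg2 at 0.31, Ier5 at 0.29, Klf6 at 0.25 and Zfp36 at 0.24 followed with intervals above 0. The NR4A genes, all called higher in tumour-like cells, had no interval above 0 here, with Nr4a1 at 0.02, Nr4a3 at 0.01 and Nr4a2 at -0.18.

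Over all low-index macrophages Hspa8 was the only member with an interval below 0, though it was not called lower. It was 1453 CPM (control) and 1226 CPM (knockdown), giving a log2 ratio of -0.24 (-0.27 to -0.22), against -0.14 by the gate, where tumour-like cells had 0.10 (0.09 to 0.11). Fosl1 by the gate was 17.34 and 32.78 CPM, giving a log2 ratio of 0.92, and in low-index macrophages 5.92 and 5.47 CPM, giving a ratio of -0.11 with an interval across 0. Hspa1a by the gate was 337.7 and 265.9 CPM, giving a ratio of -0.34, and in low-index macrophages 370.5 and 371.8 CPM, giving a ratio of 0.01. Over all low-index macrophages neither was called, but Hspa1a was called lower in those high in interferon genes, as follows.

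Macrophages high in interferon genes (at least 10 UMIs per 10000 of Isg15, Ifit1, Ifit2, Ifit3 and Rsad2, genes and limit chosen after the data were seen) made up 35.7% of low-index control macrophages and 57.5% of knockdown ones. The limit cuts a range, and 286 control and 274 knockdown macrophages lay between 8 and 12. Jun was 1284 and 1352 CPM in the macrophages low in interferon genes, giving a log2 ratio of 0.08 (0.04 to 0.11), and 1844 and 2322 CPM in the high ones, giving 0.33 (0.30 to 0.37). Egr1 was at 0.20 in the low cells and 0.44 in the high cells, and Jund at 0.40 and 0.27. Jun and Egr1 were thus called in the high cells alone and Jund in the low cells alone. In the control library Jun and Egr1 were also higher in the high cells, whose share was larger in the knockdown library. Within those low in interferon genes, Hsph1 was 25.75 and 51.2 CPM, giving a log2 ratio of 0.99 (0.77 to 1.21). Within those high in interferon genes it was 46.54 and 42.35 CPM, giving a ratio of -0.14 (-0.36 to 0.09). In the low cells 5 members were called higher (9.69% of all genes) and 1 lower (10.9%), and in the high cells 2 higher (10.7%) and 3 lower (7.41%). The 3 were Hspa1a, Hspa1b and Hspb1. Hspa1a was 271.2 and 285.7 CPM in the low cells, giving a ratio of 0.08 (-0.01 to 0.16), and 573.5 and 437.5 CPM in the high cells, giving -0.39 (-0.46 to -0.32). Hspa1b was at 0.34 (0.24 to 0.45) in the low cells and at -0.52 (-0.61 to -0.44) in the high cells, and Hspb1 at 0.63 and -1.08. The top 10% of low-index macrophages held 71.4% (control) and 73.4% (knockdown) of the Hspa1b UMIs, so these counting intervals understate the error, and Hspb1 came from fewer cells still, as given above. Hspa8 had intervals below 0 in both, with ratios of -0.22 and -0.27, and so had Nfkbia, at -0.12 and -0.09. The immediate early sum was higher in the knockdown library in both, at 92.45 and 99.81 UMIs per 10000 in the low cells and 104.4 and 117.4 in the high cells.

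In T cells by the gate 24 of 26 immediate early members compared were above 0, and so were 5 of 8 heat shock members, at medians of 0.29 and 0.05. Together 34 members were compared, and 29 were above 0 (58.9% of all genes), 20 had an interval above 0 (15%) and 3 below 0 (7.72%), 10 were called higher (19.2%) and 2 called lower (Fosl1 and Hspa1b, 9.7%). In low-index T cells 31 were compared, and 19 were above 0 (55.2%), 6 with an interval above 0 (7.68%) and 3 below 0 (4.68%), 3 called higher (14.6%) and 1 lower (10.0%), so fewer members were called higher in low-index cells. Of all genes called by the gate, 66.4% were higher in the knockdown library, and 45.8% under TMM, with 5 members higher (12.7% of all genes) and 2 lower (15.1%). The low-index median was 0.07, against 0.03 over all genes. Of 24 immediate early members compared there 18 were above 0, and of 7 heat shock members 6 were below 0, of which 1 was called lower.

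Atf3 in low-index T cells was 130.3 CPM (control) and 229 CPM (knockdown), giving a log2 ratio of 0.81 (0.57 to 1.06). After thinning to 2000 UMIs, which left out 173 of 596 control and 175 of 484 knockdown cells as too shallow, 18.0% (14.4 to 22.0) of control and 27.5% (22.6 to 32.8) of knockdown T cells had an Atf3 UMI, against 22.5% and 30.8% of all cells before thinning. Atf3 in T cells stood at 15.7% and 26.3% of its macrophage level. Apoe stood at 1.62% and 1.18% and C1qa at 1.08% and 0.792%. Cells that also passed the macrophage gate, which uses C1qa, were left out, so these low shares follow in part from the selection. Btg2 was 387.8 and 497 CPM, giving a ratio of 0.36 (0.20 to 0.51), and Tnfaip3 307.2 and 387.9 CPM, giving a ratio of 0.34 (0.16 to 0.51). Jund was at 0.28 (0.19 to 0.37), Dusp2 at 0.16 (0.01 to 0.32) and Jun at 0.12 (0.02 to 0.22).

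Hspa1b in low-index T cells was 157.9 CPM (control) and 108.4 CPM (knockdown), giving a log2 ratio of -0.54 (-0.84 to -0.25). Of its 292 and 150 UMIs, 81.5% and 94.0% came from the top 10% of cells, so the counting interval understates its error. Dnaja1 was 624.7 and 528.8 CPM, giving a ratio of -0.24 (-0.38 to -0.11), and Hspa8 1752 and 1552 CPM, giving a ratio of -0.17 (-0.25 to -0.10). The other heat shock members compared in T cells had intervals across 0.

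NK cells were too few for most members. By the gate 29 members were compared, with 15 above 0 (46.4% of all genes), 10 called higher (17.1% of all genes) and 4 lower (20.6%). In the 46 low-index NK cells of each library 23 were compared, with 6 above 0 (49.1%), 3 higher (16.8%) and 10 lower (19.4%), so the balance of calls turned over between the gate and its low-index cells. Hspa1a had 6 control and 61 knockdown UMIs by the gate and 6 and 11 in low-index cells. Jund was 906.6 and 1272 CPM in low-index NK cells, a log2 ratio of 0.49 (0.25 to 0.73), and Fos was 776.6 and 547.3 CPM, giving a ratio of -0.50 (-0.82 to -0.19).

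By the gates, 7 of 35 members were called higher in at least 2 classes, against 8.75% of all genes compared in at least 2, and none was called lower in 2 (1.54%). Nr4a2 and Btg2 were called in tumour-like, T and NK cells. In T cells by the gate Nr4a2 was 236.2 and 303.6 CPM, giving a log2 ratio of 0.36, and Btg2 was 223 and 317 CPM, giving 0.51. In NK cells by the gate Nr4a2 was 163.7 and 265.9 CPM (0.70), Btg2 281.9 and 401.5 CPM (0.51) and Dusp2, also called in tumour-like cells, 363.8 and 473.3 CPM (0.38). The macrophage RNA of gated NK cells differed between the libraries, as given above, and its part in these ratios was not tested. Jund (0.35 and 0.41), Egr1 (0.45 and 0.64), Atf3 (0.58 and 0.38) and Zfp36 (0.34 and 0.41) were called in T and NK cells by the gates. The intervals of Egr1 (-0.15 to 1.46, from 22 and 39 UMIs) and Zfp36 (-0.20 to 1.03) in NK cells crossed 0. Most of these calls in T and NK cells were not made in low-index cells. In low-index T cells Btg2 (0.36) and Atf3 (0.81) were still called, while Jund was at 0.28, and Nr4a2 (0.15), Egr1 (0.08) and Zfp36 (-0.12) had intervals across 0. In low-index NK cells Nr4a2 (0.62), Dusp2 (0.44) and Jund (0.49) were still called, Btg2 (0.23), Atf3 (0.15) and Zfp36 (-0.32) had intervals across 0, and Egr1 had too few UMIs to be compared. With low-index cells 4 of 35 members were called higher in 2 classes, against 3.85% of all genes, and none was called lower in 2 (1.47%). These were Nr4a2 and Dusp2 (tumour-like and NK cells), Btg2 (tumour-like and T cells) and Jund (macrophages and NK cells). In tumour-like cells Dusp2 had few UMIs, which may be stray RNA, as given above.

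Few members were higher or lower together in all 4 classes. By the gates 6 of the 29 members compared in all 4 were above 0 in each, against 13.7% of all genes: Jun, Jund, Egr1, Nr4a2, Klf4 and Btg2. Hspa1b alone was below 0 in each (7.06%). With low-index cells 4 of 23 were above 0 in each (10.3%), namely Jund, Atf3, Dusp2 (of few UMIs in tumour-like cells) and Btg2. None was below 0 in each (11.1%). Jund and Btg2 are the members on both lists. Over tumour-like cells, macrophages and T cells, which hold far more cells, 8 of 34 members had an interval above 0 in each by the gates (4.54% of all genes). With low-index cells 4 of 31 did, Jun, Jund, Atf3 and Btg2 (1.61%). None was called higher in all 3 (1.08% of all genes by the gates and 0.342% with low-index cells). The comparisons of the 4 classes use the same pair of libraries, so agreement between classes is not independent evidence of the knockdown.

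Depth per cell moved with these results, as the early RNA share was lower in deeper cells. In each of tumour-like cells, macrophages and T cells, and in both libraries, the immediate early sum was lower in each deeper group when cells were split by UMIs into 3 equal groups. In control tumour-like cells it was 33.27, 27.91 and 23.65 UMIs per 10000 at median depths of 11096, 18744 and 29913 UMIs, and knockdown tumour-like cells were shallower. Among tumour-like cells of 10000 to 20000 UMIs (2157 control and 2489 knockdown cells) the sum was 30.69 (control) and 32.93 (knockdown). There 22 of 34 members were above 0 with a median of 0.09, against 0.02 over all genes. Among those of 20000 to 40000 UMIs (1926 and 1338 cells) the sum was 24.59 and 27.23. Here 32 of 34 members were above 0 with a median of 0.16, against 0.01 over all genes. Among the shallowest, of 5000 to 10000 UMIs, 20 of 33 were above 0 with a median of 0.14, against 0.03 over all genes. Over the whole class 63.6% of all genes were above 0, and the counts of members in both shallower windows were near that share. Over the 3 windows from shallow to deep, Fos was at 0.22, 0.01 and 0.44 and Egr1 at -0.44, -0.09 and 0.19. Nr4a3 (0.32, 0.43 and 0.70), Nr4a2 (0.43, 0.31 and 0.54), Dusp1 (0.26, 0.27 and 0.53) and Dnajb1 (0.14, 0.43 and 0.56) had ratios above 0 in each window, as did Btg2 (0.45, 0.20 and 0.48). Fos, Nr4a3, Nr4a2, Dusp1, Dnajb1 and Btg2 were all called over all tumour-like cells. Within windows Fos and Dusp1 were below the limit of a call in 2 of 3, and Nr4a3, Nr4a2, Btg2 and Dnajb1 in 1 each.

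The early sum was also higher at the highest mitochondrial share in tumour-like cells and macrophages, but not in T cells. With cells split by this share into 3 equal groups, the sum of the highest group in tumour-like cells was 28.44 (control) and 34.36 (knockdown). It was 25.81 and 29.48 in the lowest. In macrophages the highest group had 107.1 and 122.8, against 92.58 and 105.6 in the lowest. In T cells the highest group had 103.2 and 110.3, against 106.1 and 111.6 in the lowest. The median mitochondrial share was 1.75% and 1.86% in tumour-like cells and 1.23% and 1.40% in gated macrophages. Erythroid markers, of which 4 were measured, summed to 6.33 and 23.6 CPM in tumour-like cells and 15.9 and 61.0 CPM in gated macrophages. The part of either in the results was not tested.

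The difference between classes was also present at like depth. Tumour-like cells of 5000 to 10000 UMIs had a median depth of 7967.5 UMIs in the control library and an immediate early sum of 35.83 UMIs per 10000. Control macrophages of 8000 to 16000 UMIs had a median depth of 9856 UMIs and a sum of 80.73. In the knockdown library these values were 38.91 and 88.64, at median depths of 7728 and 9499 UMIs. In macrophages of like depth Jun (0.24 to 0.25 over 3 windows) and Egr1 (0.32 to 0.41) had ratios above 0 in each window, with Jun below the limit of a call in all 3 and Egr1 just below it in the shallowest. In these windows the members together had medians of 0.07, -0.06 and 0.08, against -0.03, -0.01 and -0.01 over all genes.

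**Figure D5:**
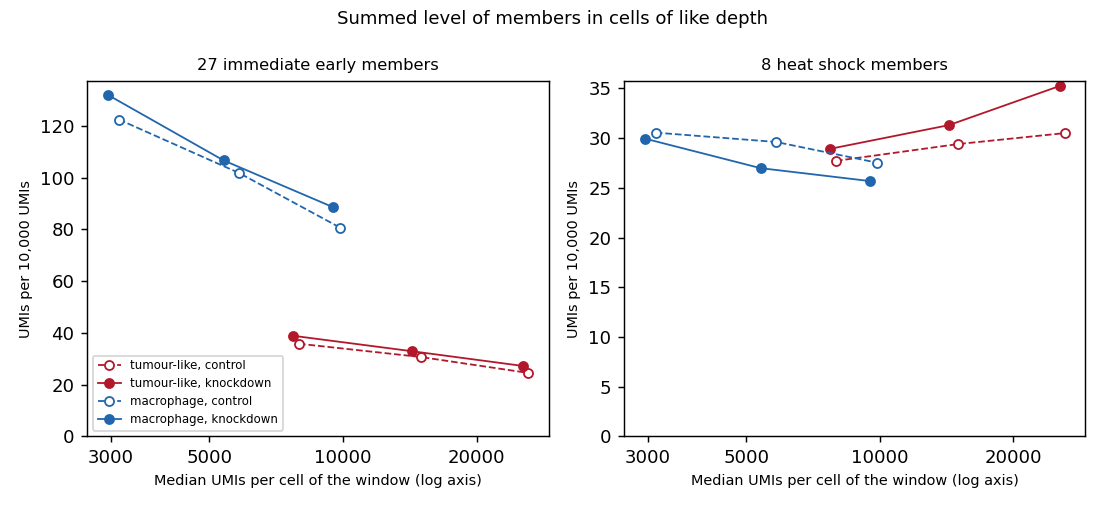
Summed level of the 27 immediate early members (left) and the 8 heat shock members (right), in UMIs per 10000, in windows of cells of like depth, against the median UMIs per cell of the window (log axis). The immediate early sum falls with depth in both classes and is higher in the knockdown library in each window. Macrophages stay above tumour-like cells where the depths of both classes overlap.

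Other genes of the same pathways were read from 3 lists that hold no member. Genes named here as highest or lowest are those with at least 100 UMIs over both libraries. Of 51 other early response genes 48 were compared in tumour-like cells, with 41 above 0 (63.6% of all genes), 7 called higher (12.6%) and 1 lower (3.56%), at a median of 0.11. Spry2, an inhibitor of receptor kinase signalling, was 20.2 and 35.68 CPM there, a log2 ratio of 0.82 (0.74 to 0.90), and Klf9 was 28.83 and 41.58 CPM, giving a ratio of 0.53 (0.46 to 0.60). Gadd45a (-0.20) and Rps6ka1 (-0.09) were lowest. The gene called lower was Gem, at -0.74 from 55 and 28 UMIs, which was named after its values were seen. In low-index macrophages 31 of 47 were above 0 (52.5% of all genes), with 6 higher (11.7%) and 1 lower (8.11%), so the share called higher was near that of all genes. Ppp1r15a, which ends the stress block on translation, was 318.4 and 538.2 CPM there, a ratio of 0.76 (0.71 to 0.80), Spry2 was at 0.83, and Klf9 (-0.56) and Klf10 (-0.21) were lowest. In low-index T cells 26 of 41 were above 0 (55.2% of all genes), with 9 higher (14.6%) and 1 lower (10.0%). Elk4 (0.61) and Spry2 (0.60) were highest there and Per1 (-0.26) and Rps6ka1 (-0.24), with intervals across 0, lowest.

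Of 18 NF-kB early genes 15 were above 0 in tumour-like cells (63.6% of all genes), with 3 called higher (12.6%) and none lower (3.56%). Tnip3 was 1.94 and 3.33 CPM there, a log2 ratio of 0.78 (0.51 to 1.04), and Traf1 was at 0.36, with Nfkbid (-0.14) and Nfkbib (-0.12) lowest. In low-index macrophages 10 of 18 were above 0, near the 52.5% of all genes, with Nfkbie (0.42) and Nfkbiz (0.29) highest and Tnip3 (-0.44) and Tnfaip2 (-0.31) lowest. Tnip3 thus had ratios of opposite sign in tumour-like cells and macrophages, a difference that was not tested. In low-index T cells 6 of 16 were above 0 (55.2% of all genes), from Rela (0.48) and Traf1 (0.25) to Nfkbid (-0.49) and Rel (-0.25).

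Of 37 other heat shock genes 26 were above 0 in tumour-like cells, at a median of 0.04 against 0.05 over all genes, with 3 called higher (12.6% of all genes) and none lower (3.56%). Cryab, a small heat shock protein, was 61.52 and 104.3 CPM there, a log2 ratio of 0.76 (0.72 to 0.81), and Dnaja4 was at 0.75, while mitochondrial Hspa9 (-0.17) and Hspb6 (-0.16) were lowest. In macrophages by the gate 21 of 37 were called higher (27.1% of all genes) and none lower (6.87%), at a median of 0.35 against 0.12 over all genes. In low-index macrophages 6 of 35 were higher (11.7%) and 1 lower (8.11%), at a median of 0.04 against 0.02, so that count was not seen without the cells of high tumour index. Cryab (0.49) and Hspa2 (0.44) were highest in low-index macrophages and Hspa9 (-0.33) and Stub1 (-0.21) lowest. In low-index T cells 15 of 30 were above 0 (55.2% of all genes), from Stip1 (0.52) and Ptges3 (0.22) to Chordc1 (-0.26) and Hspa9 (-0.24). In low-index NK cells Hsp90b1 was 416.1 and 882.5 CPM, giving a ratio of 1.08 (0.75 to 1.42), Hspd1 was at 0.48 and Ubb at -0.26. Of the early response list 17 were compared in low-index NK cells, from Mcl1 (0.55) and Gem (0.39) to Bhlhe40 (-0.44) and Btg1 (-0.40), with 5 called higher (16.8% of all genes) and 5 lower (19.4%). Of the NF-kB list 4 were compared there and all 4 were called lower, among them Nfkb1 at -0.36 (-0.85 to 0.11).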

How the data were processed

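The 2 libraries were 10x single-cell libraries, 1 per group. The authors deposited matrices of raw UMI counts, as whole numbers by gene and barcode. The matrices name Cell Ranger 6.1.0, per the file headers, where the notes name 3.1.0, per the submitters' processing notes. The genome build and annotation behind the counts are not given in the sources used here.

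Cells with at least 200 genes and at most 20% mitochondrial UMIs were kept. Doublets were removed as the cells ranked highest by Scrublet (scanpy 1.11.5), at 0.8% per 1000 cells, which was 9.59% of control and 10.3% of knockdown cells. Scrublet's own threshold marked 9.06% and 14.8%. Cells were then gated by marker counts, and a cell could pass more than 1 gate. Counts were summed per class and library and divided by all UMIs of the class (CPM). Poisson and binomial intervals are exact and at 95%, and cover counting error only. Ratios were compared for genes with at least 50 UMIs over both libraries, and called at a log2 ratio of 0.32 between libraries and 2-fold between classes. Genes of zero UMIs in a class have no ratio.

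All members are accounted for. Values are given for members called in at least 2 classes in 1 direction and for the highest member of each class. For each pathway list they are given for the 2 highest and 2 lowest genes with at least 100 UMIs. One gene that this rule names is not reported here. The members and lists were chosen with earlier results of these data known. Per-cell values use low-index leukocytes thinned to 2000 UMIs (5000 for correlations in tumour-like cells), and correlations use log(1 + UMIs). Of the alternatives, 12 were listed beforehand and 5 were added after the data were seen. TMM factors came from edgeR 4.0.16 (R 4.3.3), with no test. Python 3.11.15, numpy 2.4.6, scipy 1.17.1 and pandas 2.3.3 were used. The scripts for ratios were tested on simulated data.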

Additional observations from a re-analysis of the deposited data

Results flagged for a closer look

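Hspa8, Dnaja1, Fos, Fosl2, Ier5 and Nfkbia had ratios of knockdown over control with intervals on opposite sides of 0 in different classes, using low-index leukocytes. None of these differences was tested, as each group had 1 library. Hspa8 was above 0 in tumour-like cells and below 0 in macrophages and T cells, and its log2 ratio in tumour-like cells exceeded that in macrophages by 0.35 and that in T cells by 0.28. Dnaja1 was above 0 in tumour-like cells and macrophages and below 0 in T and NK cells. Its ratio in tumour-like cells exceeded that in T cells by 0.43 and that in NK cells by 0.66, and its ratio in macrophages exceeded them by 0.37 and 0.61. The other members were below 0 in NK cells, where the counts were small. For Fos the ratio in NK cells was 0.92 below that in tumour-like cells and 0.67 below that in macrophages. For Ier5 it was 1.02 and 1.01 below. For Fosl2 it was 1.254 below that in tumour-like cells and for Nfkbia 0.56 below.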

How the results depend on the processing

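Each group was 1 library, so no result has a replicate check, and NK cells are limited by their small number. No paired analysis was possible because each group has 1 library. In tumour-like cells no called ratio changed sign in the settings run over the whole class. Tnfaip3, not called, fell below 0 under TMM, median of ratios, equal weight, without mitochondrial and ribosomal genes and without cells with Krt16, and Fosl1 rose above 0 with equal weight. Egr1 was below 0 in 2 of 3 windows of depth. The median over members was 0.13 under TMM and 0.13 under the median of ratios. No member was called lower there at 200 UMIs or more, a count of 0. In macrophages the median was -0.10 under TMM and -0.092 under the median of ratios. Members called higher in macrophages numbered 13 in cells of at least 10000 UMIs (36.2% of all genes) 5 in cells low in interferon genes (9.69%) and 2 in cells high in them (10.7%). Members called lower numbered 0 without doublet removal (5.07% of all genes), 1 at Scrublet's own threshold (5.08%), 8 under TMM (14.4%), 8 under the median of ratios (13.7%), 7 in cells of at least 10000 UMIs (15.7%), 0 in low-index cells (8.11%) 1 in cells low in interferon genes (10.9%) and 3 in cells high in them (7.41%).

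In T cells the median was 0.019 with gates per 10000 UMIs and 0.052 with equal weight per cell. Members called higher numbered 16 at Scrublet's own threshold (23.2% of all genes), 2 with gates per 10000 UMIs (15.4%) and 3 in low-index cells (14.6%). They numbered 5 without doublet removal, with exactly 1 gate, under TMM, under the median of ratios, with equal weight, and without mitochondrial and ribosomal genes (12.5% to 18.7% of all genes). Members called lower numbered 1 in low-index cells (10.0%). In NK cells 6 were higher without doublet removal, at Scrublet's own threshold and in cells of at least 10000 UMIs (15% to 26.0% of all genes), 4 with 1 gate (18.6%) and at 200 UMIs (11.1%), and 3 in low-index cells (16.8%). Lower in NK cells were 11 with 1 gate (19.8%), 1 at 200 UMIs (8.52%) and 10 in low-index cells (19.4%). Members above 0 in all 4 classes were 3 with 1 gate (13.9% of all genes), 3 at 200 UMIs (9.43%) and 2 in cells of at least 10000 UMIs (12.1%). Below 0 in all 4 were 0 with 1 gate, gates per 10000, equal weight, 200 UMIs, cells of at least 10000 UMIs and low-index cells (6.32% to 18.6% of all genes). Members 2-fold lower in macrophages than in tumour-like cells numbered 0 in cells of at least 10000 UMIs (3.9% of all genes) and 2 in low-index cells and in those low or high in interferon genes (26.2% to 27.2%).

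Over all members, called or not, 13 of 35 ratios in macrophages, 10 of 31 in T cells and 6 of 23 in NK cells lay on the other side of 0 in low-index cells. Ratios called by the gates that changed sign were as follows. In low-index macrophages Fosl1 was at -0.11, Myc at -0.12 and Hspa1a at 0.0051. In macrophages low in interferon genes Fosl1 was at -0.36, Myc at -0.079, Hspa1a at 0.075 and Hspb1 at 0.63, and in those high in them Myc was at -0.19 and Hsph1 at -0.14. In cells of at least 10000 UMIs Hspb1 was at 0.95 in macrophages and Fosl1 at 0.0053 in T cells. Zfp36 in T cells was at -0.042 with equal weight and -0.12 in low-index cells. In NK cells Klf4 was at -0.089 with 1 gate and -0.17 in low-index cells, and Zfp36 at -0.10 without doublet removal, -0.29 with 1 gate and -0.32 in low-index cells. The causes were not tested. At a higher limit of UMIs fewer genes were compared, and with 1 gate or a low index fewer cells were used. In NK cells 45.4% of all genes called were higher, 50.7% under TMM and 62.5% under the median of ratios.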

Other observations

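Cells that passed no gate numbered 995 (control) and 1123 (knockdown) and had a median tumour index of 0.654 and 0.781. Their immediate early sum was 43.21 and 43.82 UMIs per 10000 and their heat shock sum 28.91 and 30.8. Fos was 404.6 and 362.2 CPM in these cells, and Hspa1a, which was near 0 in tumour-like cells, was 41.59 and 28.47 CPM.

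Cells that passed the macrophage gate with a tumour index at or above 0.3 had an immediate early sum of 38.22 (control) and 51.8 (knockdown), between the levels of tumour-like cells and of low-index macrophages. Their median depth was 996 UMIs in 311 control cells and 3264 UMIs in 1292 knockdown cells. Fosl1 was 119.8 and 86.74 CPM in them and Hspa1a 56.13 and 60.99 CPM.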
